A study of Homo sapiens with 12 samples.

Results

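NNMT and 8 further genes of NAD metabolism were described across sorted tumour cells from mice on a control diet or a fasting-mimicking diet. The genes were taken by symbol from the count files: NNMT, NAMPT, NMNAT1, NMNAT2, NMNAT3, NADK, SIRT1, SIRT3 and PARP1, 9 of the 26475 genes listed, and all 9 passed the filter on low counts that left 15461 genes. NNMT was chosen with its values in these libraries already known, so its levels and differences are a description and carry no test. The other 8 genes were also chosen with earlier results of these data known, so their tests and counts are not independent of the choice.

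The cells were SUM159PT, 1 established human breast cancer line, injected into female NOD scid gamma mice 8 weeks old, a host that lacks B, T and NK cells but keeps myeloid cells and stroma. One set of mice was kept on standard food as the control diet, and the other had weekly cycles of the fasting-mimicking diet (FMD) of 4 consecutive days. Cells from the tumours were stained for human CD44 and CD24 and sorted. Stranded polyadenylated RNA libraries were made from 500 ng of RNA, 3 in each of 4 groups, all CD44+: CD24-low cells under the control diet (CTR_LO), CD24-high cells under the control diet (CTR_HI), CD24-low cells under the FMD (FMD_LO) and CD24-high cells under the FMD (FMD_HI). All 4 groups share the line and the host strain. The labels do not say whether the 3 libraries of a group came from separate tumours, so p-values measure the spread between these libraries, which may be technical.

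Gene totals were 17736610 to 18579816 reads in the 3 FMD_LO libraries and 29049144 to 47587142 in the other 9. VIM, a mesenchymal marker, stood at 4348 to 6459 CPM (read counts scaled to a common library size, the unit of all levels below), and the part of other cells in it was not tested. Of the luminal markers, ESR1 and PGR were under 0.75 CPM in every library, and CDH1 and EPCAM at most 1.87 CPM. ERBB2, at 56.7 to 87.9 CPM, and GATA3, at 7.18 to 19.3, were present in every library, as was KRT18, at 273 to 436 CPM. CD24 itself lay between 1.03 and 3.27 CPM in all 12 libraries, and its range in CD24-high cells overlapped that in CD24-low cells under both diets. The FMD_LO libraries stood apart in the sums of most marker lists of other cell types. The sum of 8 neural markers, at 145 to 175 CPM there, overlapped the 134 to 192 CPM elsewhere. Summed over 10 leukocyte markers the FMD_LO libraries held 163 to 191 CPM, against 21.9 to 58.7 CPM in the other 9 libraries. TYROBP had no read there, and LAPTM5, CD68 and CD14 overlapped the other libraries. Summed over 10 fibroblast markers, the FMD_LO libraries held 46796 to 69372 CPM, against 13954 to 35401 CPM elsewhere. Most of that sum was COL1A1 and COL3A1, which were at least 4452 CPM in all 12 libraries. DCN, LUM, PDGFRA, POSTN and THY1 overlapped the other libraries. The FMD_LO libraries were also highest in the sum of 7 skeletal muscle markers, at 68.0 to 104 CPM against 3.72 to 14.1 elsewhere. That sum was mostly ACTA1, at 58.8 to 90.9 CPM, while TNNT3 stood at 2.55 to 4.07 against 4.57 to 8.43 in CTR_LO. For 8 endothelial markers they held 30.4 to 68.1 against 6.51 to 18.7 CPM, but PECAM1, CDH5, VWF and ESAM overlapped the other libraries. For 6 adipocyte markers they held 18.3 to 29.6 against 1.23 to 13.9 CPM. There LPL led, at 14.4 to 19.3, while FABP4 overlapped and ADIPOQ, LEP and CIDEC were at most 0.0892 CPM. Reads of the mouse host were not separated here, and in bulk samples fewer cells of a type and less RNA per cell cannot be told apart.

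NAD carries electrons in energy metabolism and is also consumed by signalling enzymes that release nicotinamide. NAMPT, the rate-limiting enzyme of the salvage pathway, turns nicotinamide into NMN, and 3 adenylyl transferases (NMNAT1 in the nucleus, NMNAT2 in the Golgi and cytosol, NMNAT3 in mitochondria) turn NMN into NAD. NADK phosphorylates NAD to NADP. The deacylases SIRT1 and SIRT3 and the polymerase PARP1 consume NAD, and NNMT methylates nicotinamide with S-adenosylmethionine, which removes it from salvage and draws on the methyl donor pool.

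Compared per kilobase of exon, merged over all annotated isoforms, NNMT stood first in all 4 groups, at 43.4 to 72.6 CPM per kb of its group means. The order depends on these merged lengths, 2919 bases for NNMT and 9049 for NAMPT, and the lengths of the transcripts present were not measured. By CPM alone NAMPT had a higher mean than NNMT in all 4 groups. NAMPT was second, at 30.5 to 51.4 CPM per kb, and PARP1 came next, at 18.6 to 24.3. NADK and SIRT1 lay close to each other, at 7.12 to 8.39 and 5.99 to 8.55 CPM per kb, and under the FMD they differed by less than the SD of SIRT1. SIRT3 stood at 3.72 to 3.88. The 3 NMNAT genes were lowest, with NMNAT1 at 1.27 to 1.84, NMNAT2 at 1.08 to 1.24 and NMNAT3 at 0.191 to 0.302 CPM per kb. NMNAT1 and NMNAT2 nearly met in FMD_LO, at 1.27 and 1.24 CPM per kb, closer than the spread of either.

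NNMT (chromosome 11, 114257806 to 114313536, GRCh38) was higher under the FMD in both populations. In CTR_LO its normalised values were 139.5, 137.9 and 146.8 CPM in replicates 1, 2 and 3, and in CTR_HI 131.3, 130.5 and 118.4 CPM. In FMD_LO they were 166.2, 185.6 and 185.1 CPM, and in FMD_HI 178.8, 229.4 and 227.7 CPM. All 6 FMD libraries lay above all 6 control libraries, with the highest control library at 146.8 CPM and the lowest FMD library at 166.2 CPM. NNMT was the only 1 of the 9 genes with such a gap, which 0.789% of all tested genes had. Since NNMT was chosen with its values known, nothing is read from that share.

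Mean NNMT under the control diet was 141 ± 4.76 CPM in CD24-low and 127 ± 7.19 CPM in CD24-high cells, and under the FMD 179 ± 11.1 and 212 ± 28.7 CPM (SD, n = 3 each). The fitted log2 difference between diets was 0.34 ± 0.12 (SE) in CD24-low cells and 0.74 ± 0.12 in CD24-high cells. Within the control diet, CTR_LO lay above CTR_HI without overlap, by 0.16 ± 0.12 on the log2 scale. Under the FMD the order of the means was turned, with FMD_LO 0.24 ± 0.12 lower than FMD_HI, but there the libraries overlapped, since FMD_HI replicate 1 at 178.8 CPM was below FMD_LO replicates 2 and 3. The highest group by mean, FMD_HI, thus had 1 low library of 3.

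The NNMT difference between diets was larger in CD24-high than in CD24-low cells. The leukocyte and fibroblast sums are set beside it here as a description. In CD24-high cells the leukocyte sum was 28.6 to 45.1 CPM under the control diet and 39.8 to 58.7 under the FMD, and the fibroblast sum was 16106 to 30231 and 13954 to 17700 CPM. In CD24-low cells, where the leukocyte sum was at most 37.4 CPM under the control diet and at least 163 CPM under the FMD, NNMT differed less. The test of the difference between the 2 diet effects is not given, as NNMT was chosen on these values, but its size was -0.40 ± 0.16 (SE, log2). NNMT is itself expressed by fibroblasts, and the part of host or other cells in its level was not tested.

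**Figure D1:**
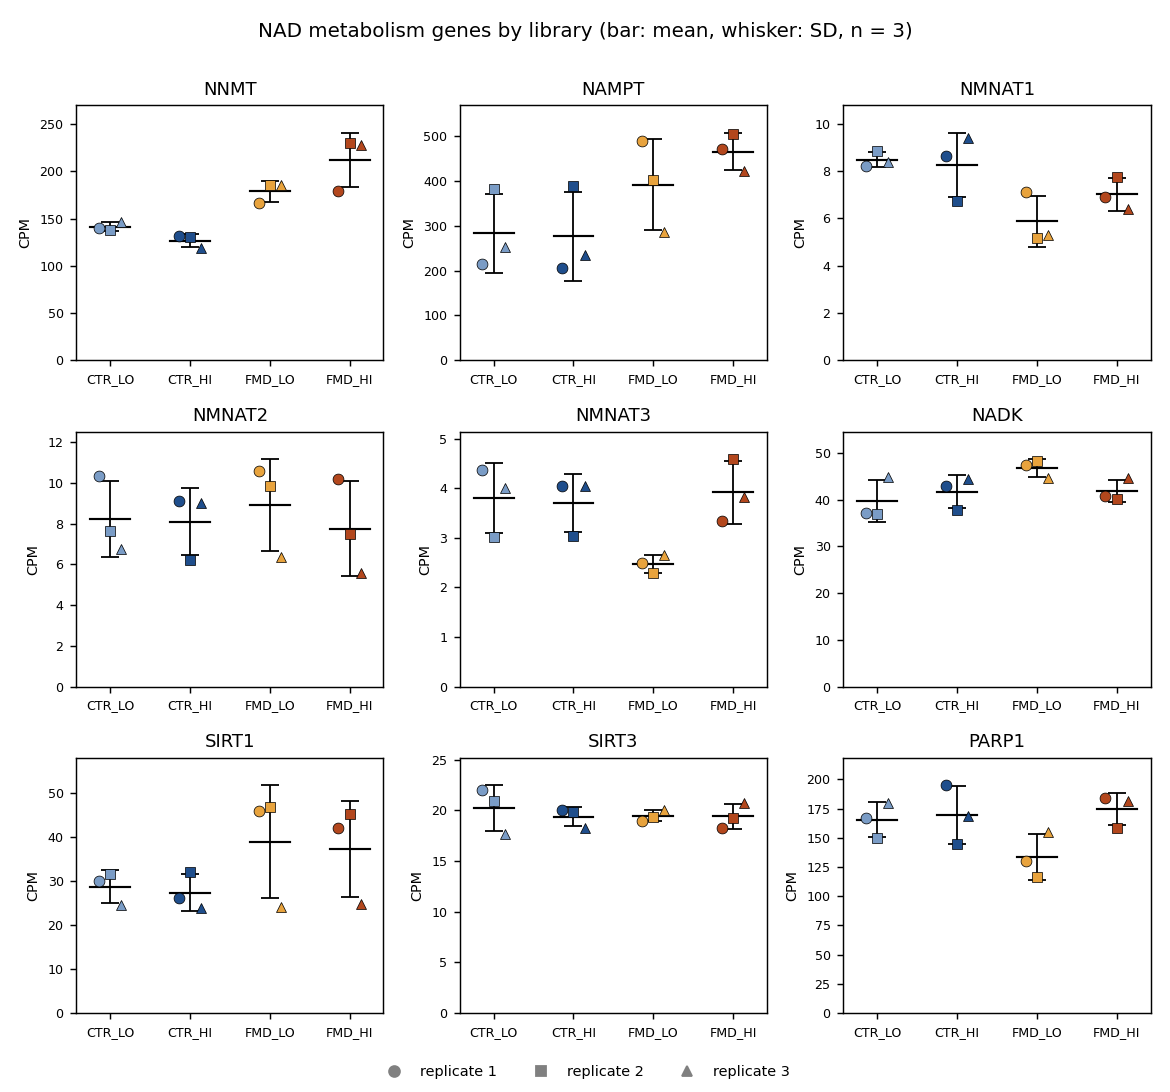
Normalised values (CPM, vertical axes from 0) of the 9 genes in each of the 12 libraries, with horizontal bars for the mean of a group and whiskers for its SD (n = 3). NNMT separates the 6 FMD libraries (166.2 CPM and above) from the 6 control libraries (146.8 CPM and below), while SIRT1 is lowest in replicate 3 of all 4 groups.

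NAMPT (chromosome 7, 106248298 to 106285888), the salvage enzyme upstream of the NMNATs, also had higher means under the FMD, with a far wider spread. Its values were 214, 382 and 253 CPM in CTR_LO and 205, 388 and 235 CPM in CTR_HI. In FMD_LO they were 489, 402 and 285 CPM, and in FMD_HI 471, 504 and 421 CPM. Replicate 2 was the high library in both control groups, and replicate 3 the low one in both FMD groups. In CD24-high cells the diets did not overlap, although the gap ran only from 388 to 421 CPM. In CD24-low cells FMD_LO replicate 3 lay among the control libraries.

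With all 12 libraries and no replicate block, the NAMPT difference did not pass the threshold of an adjusted p below 0.05 in any of the 6 edgeR contrasts. The log2 difference was 0.75 ± 0.27 (SE) in CD24-high cells, with an adjusted p of 0.604, and 0.47 ± 0.27 in CD24-low cells, with an adjusted p of 0.263. Averaged over both populations, a contrast added after the data had been seen, it was 0.61 ± 0.19 with an adjusted p of 0.0620, and DESeq2 gave 0.0102. In that contrast the edgeR test called it without CTR_LO replicate 2 (adjusted p = 0.0205), without CTR_HI replicate 2 (0.0114) and without FMD_LO replicate 3 (0.0300). The averaged contrast takes the CD24-low and CD24-high libraries of a diet as independent. The labels do not say whether libraries of the same replicate number share a tumour. If they do, the SE and p-values of this contrast, here and below, may be too small. NAMPT has processed pseudogenes, NAMPTP1 on chromosome 10 among them, and how reads shared with them were counted is not given in the sources used here.

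Of the NMNAT genes, NMNAT1 and NMNAT3 had their lowest means in CD24-low cells under the FMD, and NMNAT2 showed no pattern by group. NMNAT1 (chromosome 1, 9942923 to 9996892) stood at 8.23, 8.83 and 8.38 CPM in CTR_LO and 7.12, 5.18 and 5.32 CPM in FMD_LO. These 2 groups did not overlap, and the log2 difference was -0.53 ± 0.18 with an adjusted p of 0.0556 by edgeR and 0.0491 by DESeq2. In CD24-high cells NMNAT1 stood at 8.66, 6.76 and 9.39 CPM under the control diet and 6.93, 7.77 and 6.39 CPM under the FMD. Those groups overlapped, with a log2 difference of -0.24 ± 0.17. The edgeR test called the CD24-low difference without FMD_LO replicate 1 (adjusted p = 0.0296), without CTR_HI replicate 2 (0.0408) and with libraries scaled by their totals alone (0.0316).

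NMNAT3 (chromosome 3, 139560180 to 139678050), the mitochondrial enzyme, had its 3 lowest values of all 12 libraries in FMD_LO, at 2.49, 2.30 and 2.66 CPM. It stood at 4.37, 3.02 and 4.01 CPM in CTR_LO, 4.05, 3.03 and 4.04 CPM in CTR_HI, and 3.34, 4.59 and 3.82 CPM in FMD_HI. FMD_LO thus overlapped none of the other groups, and these values rest on 39 to 49 reads per FMD_LO library, the shallowest of the series. With every library thinned to the smallest total, the log2 difference from CTR_LO was -0.51. Unthinned, the log2 difference was -0.62 ± 0.22 against CTR_LO (adjusted p = 0.0733) and -0.66 ± 0.22 against FMD_HI (adjusted p = 0.0677), neither past the threshold. With the FMD libraries paired by replicate number, the difference from FMD_HI was -0.65 ± 0.19 with an adjusted p of 0.0272 by edgeR. Without CTR_LO replicate 2, the one against CTR_LO had an adjusted p of 0.0425, and with libraries scaled by their totals alone 0.0483. The difference between the 2 diet effects was -0.70 ± 0.30, with an adjusted p of 0.290.

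NMNAT2 (chromosome 1, 183248237 to 183418380) ranged from 5.56 to 10.6 CPM, and its group means, between 7.75 and 8.91 CPM, differed by less than the SD within any group. Replicate 1 held the highest value in each of the 4 groups. NADK (chromosome 1, 1751232 to 1780514) ranged only from 37.0 to 48.2 CPM. Its FMD_LO libraries, at 44.6 to 48.2 CPM, lay just above those of FMD_HI, at 40.2 to 44.5 CPM, with a log2 difference of 0.16 ± 0.11 and an adjusted p of 0.403 by edgeR.

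The NAD consumers SIRT1, SIRT3 and PARP1 had 3 unlike profiles. SIRT1 (chromosome 10, 67884656 to 67918390), a nuclear deacetylase, stood at 30.1, 31.6 and 24.4 CPM in CTR_LO and 26.1, 31.9 and 23.8 CPM in CTR_HI. In FMD_LO it stood at 45.9, 46.7 and 24.1 CPM, and in FMD_HI at 42.0, 45.2 and 24.7 CPM. Replicates 1 and 2 of both FMD groups lay above every control library, while replicate 3 of both lay within the control range. The log2 difference between diets was 0.44 ± 0.26 in CD24-low and 0.45 ± 0.26 in CD24-high cells, with adjusted p-values of 0.281 and 0.849 by edgeR. Without FMD_LO replicate 3, the CD24-low difference was 0.68 ± 0.22 with an adjusted p of 0.0451. Averaged over both populations it was 0.44 ± 0.19 (adjusted p = 0.142), and edgeR called it without FMD_LO replicate 3 (0.0241) or without FMD_HI replicate 3 (0.0446).

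SIRT3 (chromosome 11, 215030 to 236931), the main mitochondrial deacetylase, had the narrowest range of the 9 genes relative to its level. Its 12 values lay between 17.7 and 22.0 CPM, and its fitted log2 difference between diets was -0.05 ± 0.12 in CD24-low and 0.00 ± 0.12 in CD24-high cells. The 95% intervals of these differences were -0.33 to 0.22 and -0.27 to 0.28.

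PARP1 (chromosome 1, 226360691 to 226408093), which makes poly(ADP-ribose) at DNA breaks, had its lowest mean in FMD_LO. Its values there were 130, 116 and 155 CPM, against 184, 158 and 181 CPM in FMD_HI. The control groups stood at 167, 150 and 180 CPM in CTR_LO and 195, 145 and 169 CPM in CTR_HI. FMD_LO and FMD_HI did not overlap, but FMD_LO replicate 3 lay within the range of both control groups. The log2 difference between FMD_LO and FMD_HI was -0.38 ± 0.14 with an adjusted p of 0.0947. With the FMD libraries paired by replicate number, PARP1 fell by 0.39 ± 0.09 on the log2 scale (adjusted p = 0.00762, edgeR). Without FMD_LO replicate 3 and with no pairing it was called too, with a difference of -0.52 ± 0.15 and an adjusted p of 0.0415. Between diets the differences were -0.31 ± 0.14 in CD24-low cells (adjusted p = 0.157) and 0.04 ± 0.14 in CD24-high cells (adjusted p = 0.999).

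Among the 3 NAD consumers, SIRT1 and PARP1 were the pair whose values ran most in opposite directions over the 12 libraries (Pearson r = -0.60, a description), and the 250 bases before their start sites are shown for that reason. Both windows come from RefSeq (GRCh38.p14), overlap no annotated exon, and are written 5′ to 3′ on the strand of the gene. Capitals mark the E-box CACGTG and the GC box GGGCGG, searched on both strands.
SIRT1, chr10:67884406-67884655, plus strand: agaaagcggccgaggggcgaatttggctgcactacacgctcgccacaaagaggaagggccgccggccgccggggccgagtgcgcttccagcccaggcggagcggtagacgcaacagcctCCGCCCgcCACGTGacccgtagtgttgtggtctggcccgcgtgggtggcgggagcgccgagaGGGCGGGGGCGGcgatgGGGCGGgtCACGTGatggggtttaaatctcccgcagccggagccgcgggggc
PARP1, chr1:226408094-226408343, minus strand: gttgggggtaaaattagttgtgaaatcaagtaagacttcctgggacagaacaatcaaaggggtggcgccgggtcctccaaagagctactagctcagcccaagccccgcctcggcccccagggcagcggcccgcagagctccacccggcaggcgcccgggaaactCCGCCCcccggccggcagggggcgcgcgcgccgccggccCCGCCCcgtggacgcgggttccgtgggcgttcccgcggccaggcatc
The SIRT1 window held 2 E-boxes and 4 GC boxes, 2 of these adjoining, and the PARP1 window 0 E-boxes and 2 GC boxes. Over 35116 RefSeq promoter windows of the same length, 6.34% held an E-box of these letters and 42.6% a GC box. Of the 9 genes, 8 had an entry in the promoter table. The matches are a description of the letters in these windows, and their part in the levels of SIRT1 and PARP1 was not tested.

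**Figure D2:**
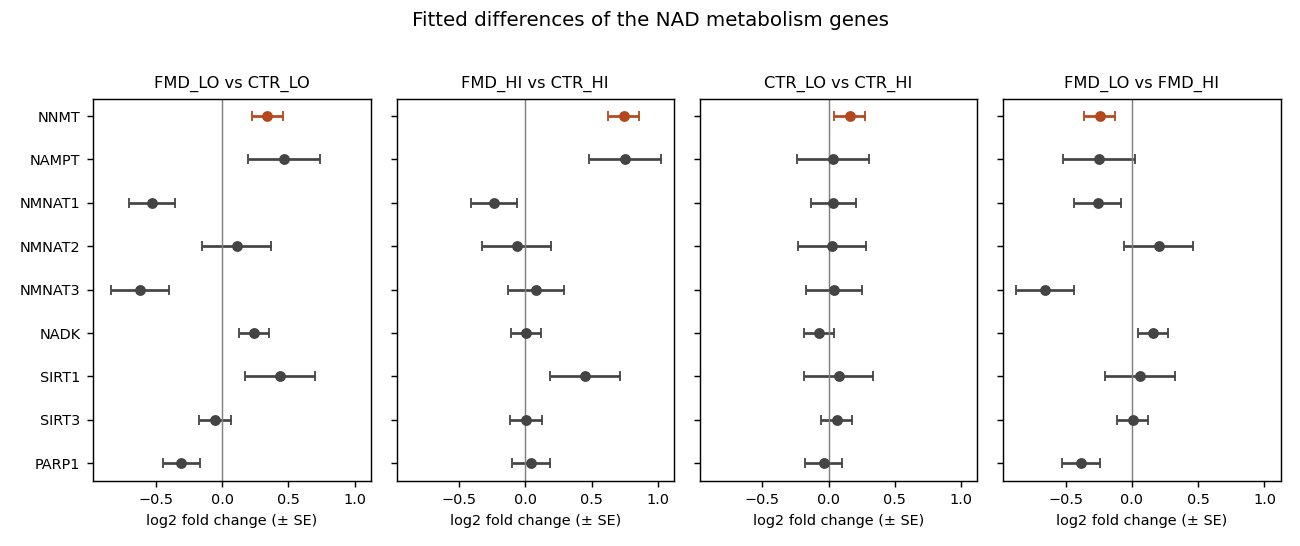
Fitted log2 fold changes (horizontal axis, first group minus second) of the 9 genes in 4 comparisons, with the SE as bars. NNMT is drawn in colour because it carries no test. NNMT, NAMPT, SIRT1 and NADK lie to the right of 0 under both diet comparisons, NADK at 0.00 in CD24-high cells. NMNAT1, NMNAT3 and PARP1 lie to the left of 0 in both comparisons that start from FMD_LO.

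Counted over the 8 genes other than NNMT, none passed the edgeR threshold in any of the 6 contrasts. Between FMD_LO and CTR_LO, where 16.4% of all genes were called, 3 of the 8 (NMNAT1, NMNAT3 and PARP1) had an unadjusted p below 0.05, and DESeq2 called 1. Between FMD_HI and CTR_HI, where 0% of all genes were called, 1 of the 8 (NAMPT) had an unadjusted p below 0.05, and DESeq2 called 0. Between CTR_LO and CTR_HI, again with 0% of all genes called, no gene of the 8 had an unadjusted p below 0.05, and DESeq2 called 0. The log2 differences of the 8 between these control groups ran from -0.07 to 0.07, with 95% intervals that reached from -0.59 to 0.68. The comparisons share groups, so their counts are not independent of one another. With libraries scaled by their totals alone, the share of higher genes among those called moved from 73.5% to 56.2% between FMD_LO and CTR_LO, and from 70.0% to 52.4% in the averaged diet contrast described next.

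Between FMD_LO and FMD_HI, where 14% of all genes were called, 2 of the 8 (NMNAT3 and PARP1) had an unadjusted p below 0.05, and DESeq2 called 0. With the FMD libraries paired by replicate number, edgeR called those 2 genes, and 4201 genes in place of 2163 over the whole table, or 27.2%. In the diet contrast averaged over both populations, with 11.1% of all genes called, 3 of the 8 (NAMPT, NMNAT1 and SIRT1) had an unadjusted p below 0.05, and DESeq2 called NAMPT and NMNAT1. For the difference between the 2 diet effects, with 4.13% of all genes called, 1 of the 8 (NMNAT3) had an unadjusted p below 0.05, and DESeq2 called 0.

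Groups that did not overlap can be counted over the 8 genes in the same way. Between FMD_LO and CTR_LO, 2 of the 8 (NMNAT1 and NMNAT3) lay wholly lower and 0 wholly higher, against 17.8% lower and 19.7% higher over all genes. Between FMD_HI and CTR_HI, NAMPT lay wholly higher and 0 of the 8 wholly lower, against 4.48% and 4.72%. Between FMD_LO and FMD_HI, NMNAT3 and PARP1 lay wholly lower, against 13.1%, and NADK wholly higher, against 18.3%. Between CTR_LO and CTR_HI all 8 overlapped, against 1.96% of all genes wholly higher and 1.47% wholly lower. Set against those shares, the counts give no result about the 8 genes as a group.

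The spread within groups linked some of the genes. Over the 12 libraries, SIRT1 and NAMPT had a Pearson r of 0.73 in log2 CPM, and 0.64 after each group's mean was taken out. PARP1 ran the other way, with r of -0.45 with NAMPT and -0.60 with SIRT1, and -0.80 and -0.71 after group means were taken out. PARP1 and NMNAT3 had an r of 0.77, and 0.45 within groups. NNMT and NAMPT had an r of 0.65 over the libraries but -0.15 within groups. These are descriptions over 12 points that share library depth, scaling and 4 groups.

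**Figure D3:**
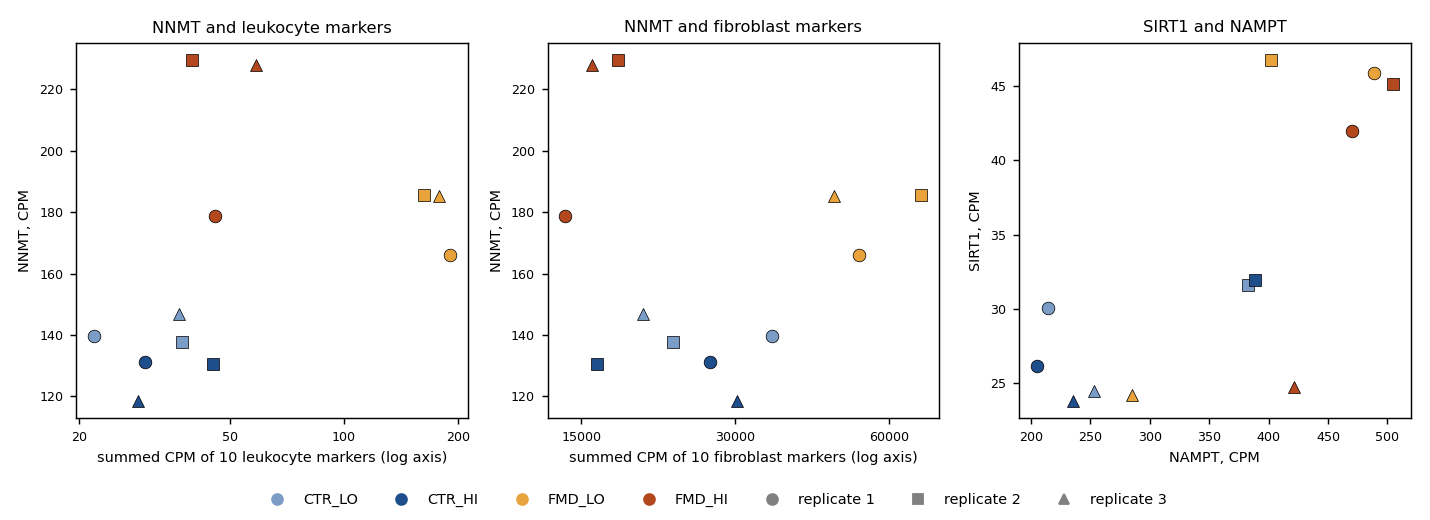
Each point is 1 of the 12 libraries, coloured by group and shaped by replicate: NNMT (CPM) against the summed CPM of 10 leukocyte markers and of 10 fibroblast markers (log axes), and SIRT1 against NAMPT (CPM, linear axes that do not start at 0). The FMD_LO libraries lie to the right in both marker plots with NNMT below the 2 highest FMD_HI libraries, and the replicate 3 libraries lie low for SIRT1 at every NAMPT level.

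By likeness to NNMT over the 12 libraries, the 5 coding genes with the highest Pearson r in log2 CPM, of 12919 examined, were AK3 (r = 0.90), IER5L (0.88), MEPCE (0.88), SLC39A1 (0.87) and TRPT1 (0.87). AK3, a mitochondrial adenylate kinase, stood at 24.9 to 27.7 CPM in the 6 control libraries and 30.5 to 31.7 CPM in the 6 FMD libraries. With group means taken out, the order was led by HCLS1 (r = 0.94), NDUFA11 (0.94), IFI27L1 (0.93), MPST (0.92) and TMEM101 (0.92). HCLS1, a cytoskeletal adaptor of blood cells, stood at 66.3, 92.0 and 87.6 CPM in FMD_LO, the replicates in which NNMT was lowest, highest and second, and at 4.92 to 9.44 CPM in the other 9 libraries.

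Beyond the 9 genes, 68 others of NAD and methyl donor metabolism were listed, in 8 groups by role, and 56 passed the filter on low counts. They were chosen with earlier results of these data known. Most marker sums and the depth of the FMD_LO libraries moved with every comparison that involves these libraries. Their part in the results that follow, as in those of NMNAT1, NMNAT3 and PARP1, was not tested. Between FMD_LO and CTR_LO 7 of the 56 were called, 5 higher and 2 lower, or 12.5% against 16.4% of all genes. DESeq2 called 10. The median log2 difference of the 56 was -0.11, against -0.03 over all genes. Between FMD_HI and CTR_HI edgeR and DESeq2 called 0, and 5 had an unadjusted p below 0.05. Between CTR_LO and CTR_HI both called 0, and 0 had an unadjusted p below 0.05.

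AOX1, the aldehyde oxidase that oxidises the methylnicotinamide made by NNMT, rose under the FMD. Its values were 7.63, 13.6 and 8.26 CPM in CTR_LO and 11.5, 12.2 and 9.16 CPM in CTR_HI, against 20.8, 13.7 and 18.1 CPM in FMD_LO and 24.1, 17.3 and 18.3 CPM in FMD_HI. All 6 FMD libraries lay above all 6 control libraries, as for NNMT, but by a narrow margin from 13.6 to 13.7 CPM. It was the one gene of the 56 to do so, where 0.789% of all genes did.

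In the averaged contrast AOX1 was 0.85 ± 0.16 higher under the FMD on the log2 scale (adjusted p = 0.00619, edgeR), and it passed when any 1 of the 12 libraries was left out. Since that contrast takes the CD24-low and CD24-high libraries of a diet as independent, its SE and adjusted p may be too small. In CD24-low cells alone the difference was 0.84 ± 0.23 (adjusted p = 0.0256), lost without CTR_LO replicate 1, CTR_LO replicate 3 or FMD_LO replicate 1, with adjusted p-values up to 0.0994, and in a fit of only CTR_LO and FMD_LO (0.0533). In CD24-high cells it was 0.86 ± 0.23 but did not pass (adjusted p = 0.440). The difference between the 2 diet effects was -0.02 ± 0.33.

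Among the other small-molecule methyltransferases, which share the methyl donor with NNMT, 2 of 5 tested were called between FMD_LO and CTR_LO, where 16.4% of all genes were. HNMT, which inactivates histamine, stood at 3.40, 2.55 and 1.25 CPM in CTR_LO and 6.47, 6.59 and 4.99 CPM in FMD_LO, and rose by 1.32 ± 0.32 on the log2 scale (adjusted p = 0.0124). In CD24-high cells it stood at 1.90, 2.24 and 3.21 CPM under the control diet and 1.51, 1.77 and 1.43 CPM under the FMD. Every FMD_LO library thus lay above every CTR_LO library, and every FMD_HI library below every CTR_HI library. GAMT, which makes creatine, fell by 0.57 ± 0.14 on the log2 scale in CD24-low cells (adjusted p = 0.0142), from 43.8 to 29.5 CPM in the group means, a call lost without CTR_LO replicate 1, FMD_LO replicate 1 or FMD_LO replicate 2. INMT and PNMT, close relatives of NNMT, were near 0, under 0.374 CPM in every library.

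The difference between the 2 diet effects on HNMT was 1.96 ± 0.45 (adjusted p = 0.0279, edgeR), the only edgeR call among the 56 genes in that contrast, where 4.13% of all genes were called. DESeq2 called HNMT and QPRT. With 1 library left out, the adjusted p of HNMT by edgeR reached 0.0687. It was lost without CTR_HI replicate 3, FMD_LO replicates 1 or 2, or FMD_HI replicates 1 or 3. HNMT is also expressed in macrophages, and in CD24-low cells the leukocyte sum, 163 to 191 CPM in FMD_LO, moved with it. In CD24-high cells it did not: HNMT was lower under the FMD, and the sum was 28.6 to 45.1 CPM in CTR_HI and 39.8 to 58.7 in FMD_HI. The part of the leukocyte sum in the HNMT result was not tested. For the kynurenine genes described next, the leukocyte and fibroblast sums were both higher in FMD_LO than FMD_HI, and their part was not tested.

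In the de novo and kynurenine route, which builds NAD from tryptophan, 5 of 9 genes were tested and 2 differed between FMD_LO and FMD_HI, where 14% of all genes did. TDO2, which opens the tryptophan ring, stood at 16.1, 39.1 and 27.8 CPM in FMD_LO and 2.49, 4.35 and 4.83 CPM in FMD_HI, a log2 difference of 2.83 ± 0.62 (adjusted p = 0.0120). QPRT, which makes nicotinic acid mononucleotide from quinolinate, stood at 4.04, 7.71 and 4.94 CPM in FMD_LO and 0.252, 0.720 and 1.04 CPM in FMD_HI, a difference of 3.02 ± 0.66 (adjusted p = 0.00879). Both pairs of groups lay apart, but the control libraries bridged them. TDO2 stood at 21.2, 10.3 and 8.85 CPM in CTR_LO and 9.25, 3.41 and 19.5 CPM in CTR_HI, and QPRT at 6.13, 2.89 and 2.17 CPM in CTR_LO and 2.53, 0.724 and 4.44 CPM in CTR_HI. Neither gene was called between diets: in CD24-low cells the adjusted p was 0.254 for TDO2 and 0.549 for QPRT, and in CD24-high cells 0.702 and 0.573 (edgeR). The TDO2 call was lost without FMD_HI replicate 1 or FMD_HI replicate 2, with adjusted p-values up to 0.0569, and the QPRT call was kept when any 1 library was left out. KYNU, the highest of the list by mean, stood under the control diet at 44.3 ± 22.7 CPM in CD24-low and 45.2 ± 18.9 in CD24-high cells, and under the FMD at 62.5 ± 7.87 and 73.8 ± 11.9 CPM (SD, n = 3), and was not called.

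**Figure D4:**
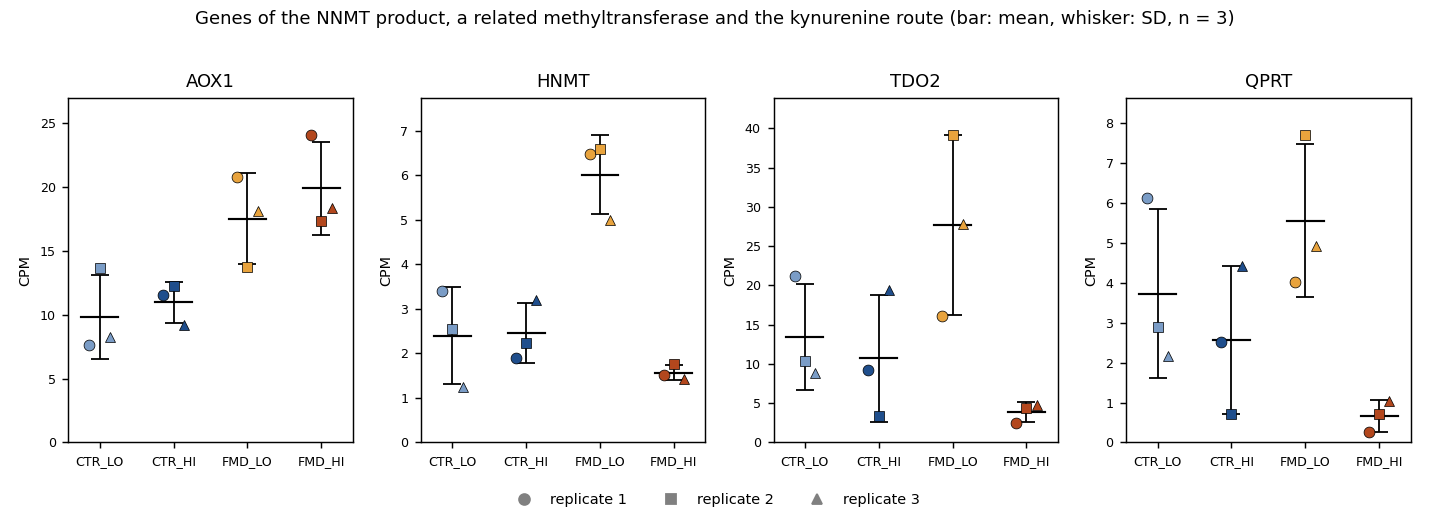
Normalised values (CPM, vertical axes from 0) of AOX1, HNMT, TDO2 and QPRT in the 12 libraries, with bars for the mean of a group and whiskers for its SD (n = 3). AOX1 is higher in both FMD groups, whereas HNMT, TDO2 and QPRT have their highest mean in FMD_LO and their lowest in FMD_HI.

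Between FMD_LO and FMD_HI 4 of the 56 genes were called, 3 higher and 1 lower, or 7.14% against 14% of all genes, and DESeq2 called 6. Beside TDO2 and QPRT the higher genes included HNMT, by 1.94 ± 0.33 (adjusted p = 0.00114). The lower one was PARP12, an interferon-induced mono-ADP-ribosyltransferase, by -0.38 ± 0.11 (adjusted p = 0.0334), a call lost when any 1 of the 6 FMD libraries was left out and with all libraries thinned to the smallest total (0.0586). With the FMD libraries paired by replicate number, 17 of the 56 were called, where 27.2% of all genes were.

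Of 15 further ADP-ribosyltransferases and PARG tested between FMD_LO and CTR_LO, 3 were called, all higher, where 16.4% of all genes were called in either direction. TNKS2 (tankyrase 2, which marks proteins such as axin for degradation) rose by 0.70 ± 0.17 on the log2 scale, from 39.6 to 64.2 CPM (adjusted p = 0.0138), and without FMD_LO replicate 1 its adjusted p was 0.0544. PARP6 rose by 0.43 ± 0.13 (adjusted p = 0.0378) and PARP8 by 0.48 ± 0.15 (adjusted p = 0.0393). Each of those 2 calls was lost without CTR_LO replicate 2, CTR_LO replicate 3, FMD_LO replicate 1 or FMD_LO replicate 2, and with libraries scaled by their totals alone (adjusted p = 0.0718 and 0.0811). With no count filter the adjusted p of PARP6 was 0.0541. TIPARP, the highest of this list by mean, stood at 168 ± 24.7 CPM in CTR_LO and 272 ± 72.4 in FMD_LO (SD, n = 3; adjusted p = 0.0637, edgeR).

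Of the 5 other sirtuins, SIRT5, a mitochondrial desuccinylase, fell by 0.61 ± 0.17 on the log2 scale in CD24-low cells (adjusted p = 0.0224). Its mean was 12.5 CPM in CTR_LO and 8.21 CPM in FMD_LO, with all 3 FMD_LO libraries, at 8.13 to 8.25 CPM, below all 3 of CTR_LO, and the call was lost without CTR_LO replicate 1, CTR_LO replicate 3, FMD_LO replicate 1 or FMD_LO replicate 2. SIRT2, the highest of this list, stood between 45.1 and 58.8 CPM in all libraries and was not called.

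In the averaged diet contrast 3 of the 56 were called by edgeR, or 5.36% against 11.1% of all genes, and 7 by DESeq2. Beside AOX1 these were PARP6, higher by 0.32 ± 0.09 (adjusted p = 0.0438), and GAMT, lower with a log2 difference of -0.36 ± 0.10 (adjusted p = 0.0333). With 1 library left out, the adjusted p of PARP6 reached 0.106 and that of GAMT 0.0995, and PARP6 passed in 5 and GAMT in 4 of the 12 such fits. PARP6 was also lost with library totals alone (0.0834) and with no count filter (0.0558).

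The remaining lists are given by level. Of the 5 tested genes that make NAD from other precursors, NT5E, the ectonucleotidase CD73, was highest, at 116 to 335 CPM, and NAPRT, the entry enzyme for nicotinic acid, stood at 2.09 to 4.90 CPM. NNT, the mitochondrial transhydrogenase between NAD and NADP, stood at 107 ± 7.52 CPM in CTR_LO and 82.2 ± 7.97 in FMD_LO (SD, n = 3; adjusted p = 0.0784, edgeR). Of the NAD glycohydrolases, CD38 was at most 0.0572 CPM in any library, and SARM1 stood at 33.1 to 44.7 CPM. MAT2A, which makes the methyl donor used by NNMT, had group means of 226 to 236 CPM.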

How the data were processed

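Polyadenylated RNA of 12 libraries was analysed from gene-level read counts deposited by the authors, made with STAR on hg38 per the submitters' processing notes. Not given in the sources used here were versions, annotation and the treatment of reads with several matches. The fourth column of each file, reads on the reverse strand, was used, since 1.59 to 1.75% of reads lay on the other strand. The files have no line for unassigned reads.

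The 9 genes, the further lists and the marker lists were chosen with earlier results of these data known. Symbols matched directly, except NAXE (APOA1BP in the files) and NAXD (CARKD), matched by RefSeq synonyms. Counts were filtered with filterByExpr, scaled by TMM and tested in R 4.3.3 with the robust quasi-likelihood test of edgeR 4.0.16 (limma 3.58.1) over all 4 groups and 15461 genes, with 8 residual degrees of freedom and Benjamini-Hochberg adjustment over all genes at 0.05. All adjusted p-values are from this test unless DESeq2 1.42.0 is named. The averaged diet contrast, the pairing within a diet and the thinning were added after the data were seen. log2 CPM used a prior count of 2. The fit was tested on simulated counts.

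Named genes were all 9, list genes called in a contrast (at most 10 by p), the highest of each list, and the 5 most like NNMT by each of 2 measures. For 1 list the highest gene is not reported here. Exon lengths were merged from GENCODE and positions and promoters taken from RefSeq GRCh38.p14.

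Replicate numbers were checked for pairing by correlating deviations from group means. Between FMD_LO and FMD_HI r was 0.44, 0.29 and 0.49 for numbers 1, 2 and 3, so that comparison is also given paired. Between CTR_LO and CTR_HI r was 0.44, 0.52 and 0.04, and across diets it ran from -0.22 to 0.08. The averaged diet contrast takes the CD24-low and CD24-high libraries of a diet as independent, so its SE and p-values may be too small. The replicate block fits 1 term per number over both diets, a link across diets that these r values do not show. The alternatives tried were RLE scaling, library totals alone, both strands summed, no filter, DESeq2, only the compared groups, the replicate block, thinning to the smallest total and leaving out each library.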

Additional observations from a re-analysis of the deposited data

Results flagged for a closer look

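Among the 56 further genes of NAD and methyl donor metabolism, HNMT was the one edgeR call for a difference between the 2 diet effects, where 638 of all 15461 genes were called. DESeq2 called QPRT beside it. The HNMT log2 difference was 1.96 larger in CD24-low than in CD24-high cells by the edgeR interaction test (SE 0.45, adjusted p = 0.0279). The call was lost in 5 of the 12 fits that left out 1 library, with adjusted p-values of 0.0510 to 0.0687. Its mean in CD24-low cells rose by 3.62 CPM from CTR_LO to FMD_LO, with every FMD_LO library above every CTR_LO library, while every FMD_HI library lay below every CTR_HI library. The leukocyte marker sum was 163 to 191 CPM in FMD_LO and at most 58.7 CPM elsewhere, and its part in the result was not tested.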

How the results depend on the processing

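With the replicate block, edgeR called 1 gene between FMD_HI and CTR_HI, as it did with no count filter. DESeq2, without the block, called 78. The block links libraries of the same number across diets, where their deviations did not run together (r from -0.22 to 0.08). Of the 8 genes other than NNMT, edgeR with the block called 2 in the averaged diet contrast. These were NAMPT (0.65 ± 0.15, adjusted p = 0.0219) and SIRT1 (0.40 ± 0.11, adjusted p = 0.0317). Between FMD_LO and FMD_HI edgeR with the block called 1 of the 8. Of the 56 list genes it called 5 in the averaged contrast, 11 between FMD_LO and CTR_LO and 7 between FMD_LO and FMD_HI. Pairing within each diet gave 4201 genes between FMD_LO and FMD_HI and 1702 for the difference between diet effects, with 2 of the 8 genes and 17 and 3 list genes. Between CTR_LO and CTR_HI no count moved under the block. DESeq2 gave 1127 genes and 2 list genes for the difference between diet effects, 2 of the 8 genes and 7 list genes in the averaged contrast, and 1 of the 8 between FMD_LO and CTR_LO. Scaling by library totals gave 1 of the 8 in the averaged contrast and 2 between FMD_LO and CTR_LO. Reads of either strand gave 5 list genes in the averaged contrast.

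With 1 library left out, genes called ranged from 1562 to 2795 (FMD_LO against CTR_LO), 0 to 1 (FMD_HI against CTR_HI), 1504 to 2318 (FMD_LO against FMD_HI), 969 to 2041 (averaged) and 380 to 767 (difference between diet effects). Calls among the 8 ranged from 0 to 1, 0 to 0, 0 to 1, 0 to 2 and 0 to 0 in the same order, and among the 56 from 3 to 11, 0 to 0, 2 to 6, 1 to 6 and 0 to 2. NNMT's log2 difference ranged from 0.31 to 0.39 in CD24-low and 0.68 to 0.86 in CD24-high cells with 1 library left out, and from 0.25 to 0.37 and 0.70 to 0.75 under the other settings. Of 15 called results of list genes, 11 lost their call in at least 1 alternative, in each case with the same direction, and 71 of 1390 alternative values changed sign with no call before or after. The cause of these shifts was not tested. Low genes such as NMNAT3, at 39 to 49 reads per FMD_LO library, and groups of 3 limit what could be detected.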
